A study of Mus musculus with 18 samples.

Results

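Chemokine ligands are small secreted proteins that draw leukocytes and glia along a concentration gradient by binding G-protein-coupled receptors. In the brain Cx3cl1 (fractalkine) is made by neurons and read by microglia through Cx3cr1, Cxcl12 is a homeostatic ligand of vascular and neural cells read by Cxcr4 and Ackr3, and Ccl2, Ccl3, Ccl4, Ccl5, Ccl6, Ccl12, Cxcl10 and Cxcl16 are known as ligands that glia and macrophages can release when activated. The mRNA of these 10 ligands, selected by gene symbol, was read from a table of raw counts of 55487 genes, and each symbol matched 1 gene.

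The counts came from the frontal cortex of 18 mice aged 9 to 10 months. Of these, 6 were wild type (WT), 6 carried the APP/PS1 transgenes (an amyloid model of Alzheimer's disease) and 6 were APP/PS1/FTnKO, in which the farnesyltransferase gene Fntb was also deleted from forebrain neurons, and each genotype held 3 females and 3 males. According to the methods, Cre was driven by the CaMKIIα promoter, and APP/PS1 mice of a B6C3 line were crossed with a floxed Fntb line. Cre-negative floxed littermates served as the WT and APP/PS1 groups, whereas the series description calls the WT mice C57BL/6J. Of the groups used here only APP/PS1/FTnKO carried Cre, so Cre and the deletion cannot be told apart. Total counts were 15925432 to 21030935 per mouse. Levels are given as CPM, counts scaled to a common library size with TMM factors, so that 1 read was worth 0.0468 CPM in mouse 19394 and 0.0622 CPM in mouse 16975, which bracket the other mice. WT mouse 19622 was treated apart, because its summed level of cerebellar markers was 2073 CPM against 18.3 to 44.0 CPM in the other 17 mice, and its summed level of excitatory neuron markers was 445 CPM against 3806 to 6964 CPM. The tests below used the other 17 mice, which leaves 5 WT mice. App, which also collects reads of the transgene, was at 1534 ± 56.8 CPM (SD, n = 5) in WT and at 2897 ± 278 and 2971 ± 513 CPM (n = 6 each) in the transgenic groups. Fntb was at 14.3 to 32.0 CPM in APP/PS1 and at 7.84 to 14.6 CPM with the knockout, a log2 fold change of -0.77 (SE 0.26) that did not pass the test over all genes (adjusted p = 0.254 by the quasi-likelihood test of edgeR, with p-values adjusted after Benjamini and Hochberg).

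In the GRCm38 annotation (GENCODE M21), Ccl2 (chr11:82035571-82037453) and Ccl12 (chr11:82101845-82103400) lay in one stretch of chromosome 11, and Ccl5 (chr11:83525778-83530518), Ccl6 (chr11:83587882-83593087), Ccl3 (chr11:83647844-83649355) and Ccl4 (chr11:83662584-83664683) lay in a second, with 13229 bases between Ccl3 and Ccl4. Cxcl16 (chr11:70453983-70459984) stood alone on the same chromosome, Cxcl10 was at chr5:92346638-92348889, Cxcl12 at chr6:117168535-117181367 and Cx3cl1 at chr8:94772009-94782427. No transcript of a member shared a run of 50 bases with another gene. An exon of Cxcl10 overlapped one of Art3 and an exon of Cxcl16 overlapped one of Zmynd15, each on the opposite strand. RefSeq promoters were at hand for 6 members, and those of Cxcl10, Ccl3 and Ccl6 are shown because their mRNAs rose in both transgenic groups. Each is the 250 bases 5′ of the RefSeq start in GRCm38.p6, all on the minus strand, at chr5:92348890-92349139, chr11:83649379-83649628 and chr11:83593088-83593337. Capitals mark the interferon regulatory factor core AANNGAAA, with its longer form in Cxcl10, and the kappaB consensus, both searched on both strands.
Cxcl10: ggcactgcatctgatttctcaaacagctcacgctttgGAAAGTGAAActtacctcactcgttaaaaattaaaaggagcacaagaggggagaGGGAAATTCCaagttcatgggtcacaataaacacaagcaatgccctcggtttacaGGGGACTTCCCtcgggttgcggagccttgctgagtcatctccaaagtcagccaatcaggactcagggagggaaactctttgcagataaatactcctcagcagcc
Ccl3: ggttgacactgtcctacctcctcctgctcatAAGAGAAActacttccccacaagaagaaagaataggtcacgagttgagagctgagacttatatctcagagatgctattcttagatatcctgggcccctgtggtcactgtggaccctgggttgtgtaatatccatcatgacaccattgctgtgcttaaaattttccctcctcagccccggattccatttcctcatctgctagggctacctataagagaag
Ccl6: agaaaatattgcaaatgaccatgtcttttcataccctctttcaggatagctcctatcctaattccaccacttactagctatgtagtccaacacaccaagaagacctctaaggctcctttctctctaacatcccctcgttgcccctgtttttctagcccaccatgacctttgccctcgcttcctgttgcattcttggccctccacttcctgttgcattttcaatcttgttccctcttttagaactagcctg
The Cxcl10 window held the longer interferon motif at -213 to -204 and matches to the kappaB consensus at -159 to -150 and, overlapping each other, at -104 to -94. The Ccl3 window held the 8-letter core at -219 to -212, and the Ccl6 window held neither. Of 32851 RefSeq windows of this length, 21.3% held the core, 2.98% its longer form and 7.25% the kappaB consensus. The longer form and a narrower kappaB motif, in 1.41% of windows and in no member's, had been searched first, and the core and the full consensus were added after those matches were seen. The TATA box TATAAA, in 12.4% of windows, lay in the Ccl12 window at -31 to -26 and in the Cx3cl1 window at -6 to -1, and was in none of the 3 windows shown.

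Per length of exons, the ligands covered a wide range of levels in WT cortex. Cx3cl1 was by far the most abundant, at 194 ± 13.3 CPM per kilobase (SD, n = 5), followed by Cxcl12 at 10.4 ± 2.68 CPM per kilobase. The other 8 were at 0.530 ± 0.286 CPM per kilobase (Ccl12) or lower, and their spreads overlapped from Ccl12 through Ccl6 (0.486 ± 0.375) and Cxcl16 (0.428 ± 0.0321). Ccl3 (0.0475 ± 0.106) and Ccl4 (0.0305 ± 0.0681) had the lowest means. In APP/PS1 cortex the first places were still those of Cx3cl1 (171 ± 18.9, n = 6) and Cxcl12 (10.6 ± 0.456), and next came Ccl6 (5.91 ± 2.74) and Ccl3 (4.82 ± 3.92), which did not differ beyond their spread. In APP/PS1/FTnKO cortex Ccl6 was at 4.86 ± 2.02 and Ccl3 at 3.64 ± 2.15 CPM per kilobase (n = 6).

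**Figure D1:**
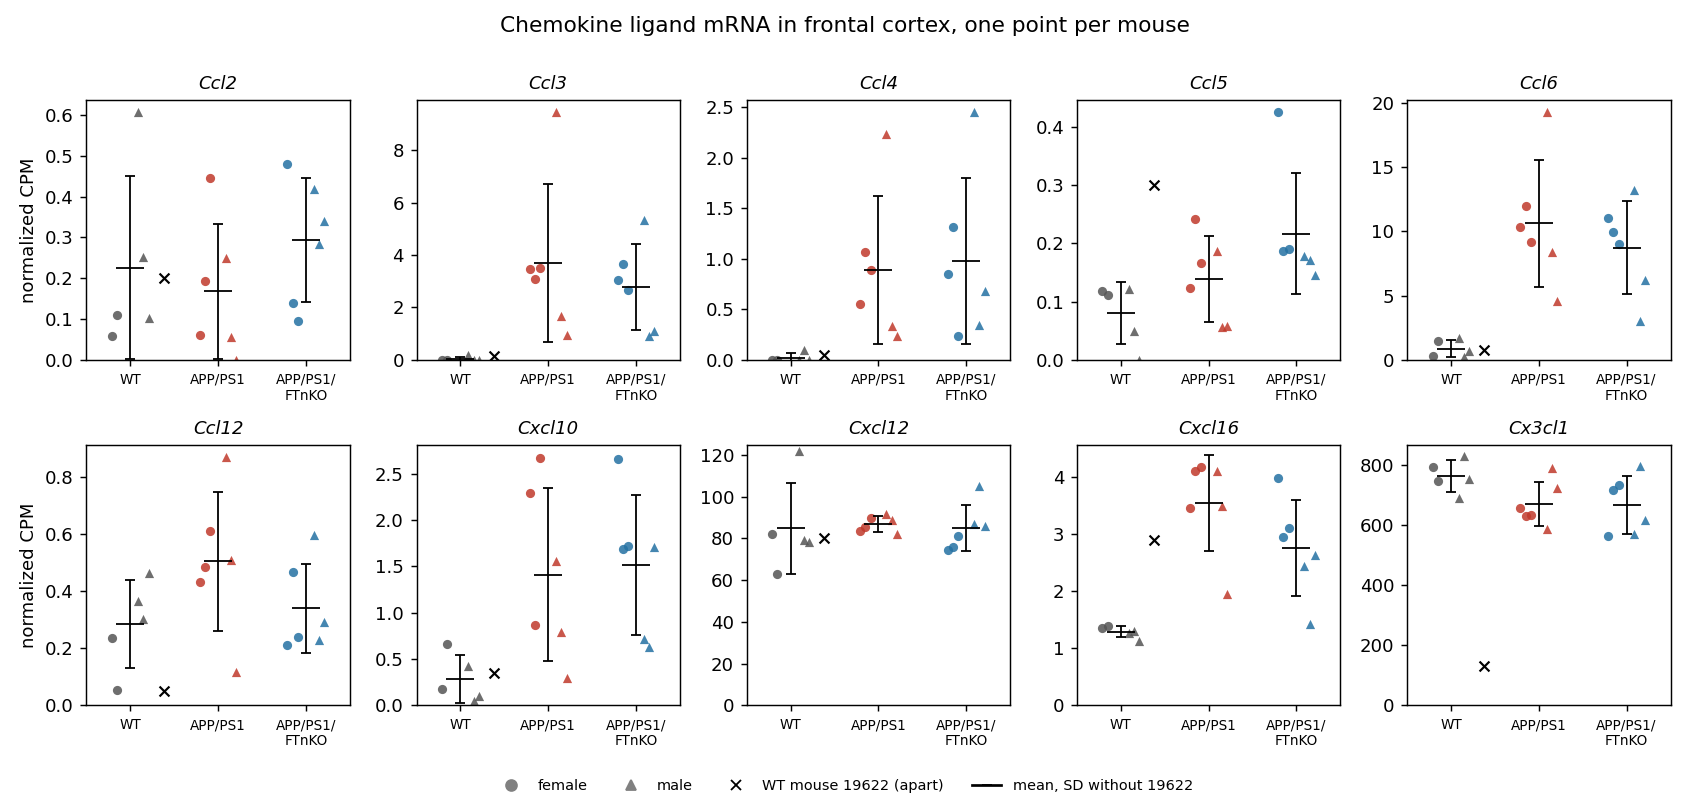
Level of each of the 10 ligands (y axis, normalized CPM, a separate linear scale per gene) in each mouse by genotype; circles are females, triangles males, the cross is WT mouse 19622, and bars are the mean and SD without it, cut at 0. Ccl3, Ccl4, Ccl6 and Cxcl16 lie above all 5 WT mice in all 12 transgenic mice, while Cxcl12 and Cx3cl1 overlap between genotypes and Cx3cl1 of mouse 19622 lies at 132 CPM.

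The first comparison, APP/PS1 against WT, asks which ligands differ with the amyloid transgenes. Ccl3, Ccl4, Ccl6, Cxcl10 and Cxcl16 were higher in APP/PS1 cortex, and Cxcl12 and Cx3cl1 did not pass the test. The remaining 3, Ccl2, Ccl5 and Ccl12, had at most 14 counts in any of the 17 mice and did not pass the filter on low counts. Of the 7 ligands tested 5 were called, all higher, where 1.45% of the 17638 genes tested were called in either direction and 1.31% were called higher. The median log2 fold change of the 7 was 2.19 and that of all genes tested was -0.0012. The groups did not overlap for 4 of the 7 (Ccl3, Ccl4, Ccl6 and Cxcl16), and 1.77% of all genes tested lay wholly higher in APP/PS1 in the same sense. The filter asked for about 10 counts in at least 4 mice, a level that Ccl3 and Ccl4 reached in 0, Cxcl10 in 1 and Ccl6 in 3 of the 5 WT mice. These 4 of the 7 were therefore tested only because of their levels in transgenic mice, so that the calls, the median and the non-overlap counted here describe the tested ligands and are no measure of the family. In bulk tissue fewer cells of a type and less RNA per cell cannot be told apart.

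Ccl3 (MIP-1α), a ligand of Ccr1, was at 0 counts in 4 of 5 WT mice and at 3 counts, 0.182 CPM, in WT mouse 19101. In APP/PS1 mice its lowest level was 0.945, its median 3.28 and its highest 9.45 CPM, the last in male 16975. Every APP/PS1 mouse was above every WT mouse, and 16975 stood well above the rest of its group. The WT mice together held 3 counts and the APP/PS1 mice 381, a ratio of pooled CPM of 109 with a 95% interval for counting error alone of 37.1 to 532. The fitted log2 fold change was 6.52 (SE 0.94, adjusted p = 0.000836 by edgeR's quasi-likelihood test), a value that depends on the prior count at so low a WT level. With 1 mouse left out it was 5.79 to 9.09, the highest without WT mouse 19101, which held all the WT counts, and edgeR's adjusted p was at most 0.00636.

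Ccl4 (MIP-1β), a macrophage chemokine and the next gene along from Ccl3, was detected in 1 of 5 WT mice, 19718, with 2 counts or 0.101 CPM. In APP/PS1 mice it ran from 0.236 through a median of 0.724 to 2.24 CPM, and the highest mouse was again 16975. The groups did not overlap, although the lowest APP/PS1 mouse rested on 4 counts. The pooled ratio was 40.0 (95% interval for counting error 10.8 to 335, from 93 and 2 counts), and the fitted log2 fold change was 5.01 (SE 1.03, edgeR adjusted p = 0.0169). The call was lost with RIN, the RNA integrity number, as a covariate (3.60, adjusted p = 0.0846) and without any one of WT mice 18944, 19053, 19718 and 19721 or APP/PS1 mouse 16975, with adjusted p of up to 0.0638. The log2 fold change itself was 4.42 without 16975, 4.71 to 4.82 without 18944, 19053 or 19721 and 7.04 without 19718, which held both WT counts.

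Ccl6, a macrophage chemokine of rodents that binds Ccr1, was at 0.295, 1.44, 1.70, 0.201 and 0.724 CPM in the WT mice. In APP/PS1 mice it was at 4.55 to 19.3 CPM with a median of 9.74, so that the lowest transgenic mouse was above the highest WT mouse. The mean rose from 0.873 ± 0.674 (SD, n = 5) to 10.6 ± 4.92 CPM (n = 6), a log2 fold change of 3.60 (SE 0.49, 95% interval 2.58 to 4.63, edgeR adjusted p = 0.000613). It was the ligand with the smallest adjusted p in this comparison.

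Cxcl16, made as a membrane-bound ligand of Cxcr6 that also takes up oxidised lipoprotein, was tightly grouped in WT mice at 1.36, 1.39, 1.27, 1.31 and 1.14 CPM. In APP/PS1 mice it was at 3.47, 4.11, 4.18, 4.10, 3.50 and 1.95 CPM. The last value, of male 19744, was the lowest of its group and still above all 5 WT mice. The log2 fold change was 1.41 (SE 0.21, 95% interval 0.97 to 1.85, edgeR adjusted p = 0.000951), or 2.65-fold. Its antisense neighbour Zmynd15, whose exon it overlaps, was at 0.700 ± 0.117 CPM in WT and 1.42 ± 0.464 CPM in APP/PS1 mice (log2 fold change 1.02, SE 0.26, edgeR adjusted p = 0.0572). The libraries were stranded, but the sources used here do not give the strand setting of the counting, so reads of this pair may not be separable.

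Cxcl10 (IP-10), an interferon-inducible ligand of Cxcr3, was at 0.177, 0.666, 0.425, 0.0503 and 0.103 CPM in the WT mice. In APP/PS1 mice it was at 2.29, 0.870, 2.67, 1.55, 0.790 and 0.295 CPM. Of the APP/PS1 mice 5 of 6 were above the highest WT mouse, and male 19744 lay within the WT range. The log2 fold change was 2.19 (SE 0.52, 95% interval 1.10 to 3.28, edgeR adjusted p = 0.0410). The call was lost with limma-voom (adjusted p = 0.0548), without the sex term (0.0621), with RIN as a covariate (0.249), once mice under RIN 8 were dropped (0.0861), without males 16975 and 16974 (0.108), with only WT and APP/PS1 mice in the fit (0.0940) and without 10 of the 17 mice left out singly (up to 0.156), while the log2 fold change stayed between 1.93 and 2.59. Art3, which overlaps it on the other strand, was at 3.65 ± 0.729 CPM in WT and 3.43 ± 0.866 CPM in APP/PS1 mice (edgeR adjusted p = 0.869).

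Cxcl12 (SDF-1) was at 81.8, 63.0, 122, 79.0 and 78.2 CPM in the WT mice and at 82.1 to 91.5 CPM in APP/PS1 mice. The APP/PS1 mice all lay inside the WT range, which mouse 19101 widened at the top. The log2 fold change was 0.069 (SE 0.11, 95% interval -0.16 to 0.30, edgeR adjusted p = 0.820). Cx3cl1, the neuronal fractalkine, was at 794, 749, 692, 832 and 753 CPM in the WT mice and at 586 to 791 CPM in APP/PS1 mice with a median of 645. Of the APP/PS1 mice 4 of 6 were below the lowest WT mouse, but the difference of -0.19 (SE 0.094, 95% interval -0.38 to 0.013) had an adjusted p of 0.394 by edgeR. With all 18 mice it was 0.033, since mouse 19622 had 132 CPM. With RIN as a covariate the Cx3cl1 difference was -0.025 (adjusted p = 0.965 by edgeR).

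**Figure D2:**
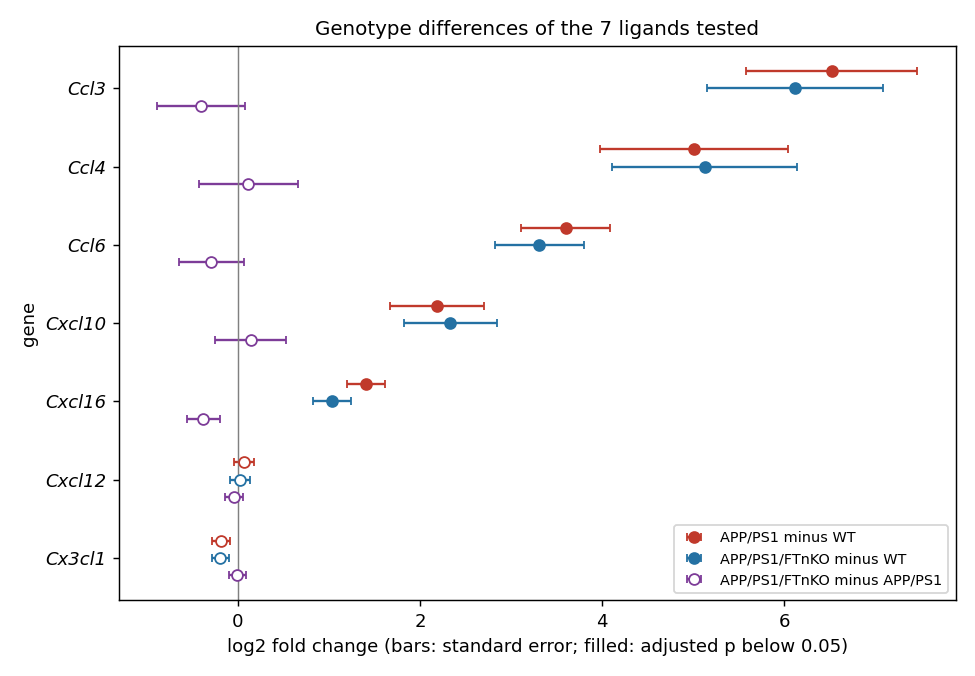
Log2 fold change (x axis) of the 7 ligands tested (y axis) in 3 genotype comparisons, with standard errors as bars and filled points where edgeR's adjusted p was below 0.05. Ccl3, Ccl4, Ccl6, Cxcl10 and Cxcl16 are filled in both comparisons with WT, and no point of APP/PS1/FTnKO minus APP/PS1 is filled.

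The second comparison, APP/PS1/FTnKO against APP/PS1, asks which ligands differ with Cre and the deletion of farnesyltransferase from forebrain neurons. None of the 7 ligands tested was called by edgeR, where 0.261% of all genes tested were called, and none had an unadjusted p below 0.05. DESeq2, limma-voom and every other setting also called 0. No ligand separated the groups, while 0.930% of all genes tested did in either direction. Cxcl16 came closest, at 3.99, 2.95, 3.11, 2.45, 1.43 and 2.63 CPM in APP/PS1/FTnKO mice. Male 18973 was below every APP/PS1 mouse and the other 5 lay within their range. The log2 fold change was -0.38 (SE 0.18, 95% interval -0.76 to 0.0055, adjusted p = 0.448 by edgeR).

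Among the CC ligands the intervals were wide, so that sizeable differences in either direction remained within them. Ccl3 was at 0.912 to 5.32 CPM in APP/PS1/FTnKO mice with a median of 2.85, and its log2 fold change against APP/PS1 was -0.40 (95% interval -1.42 to 0.62). The highest mouse was male 16974, and the lowest, male 18973, was just below the lowest APP/PS1 mouse. Ccl4 was at 0.239 to 2.45 CPM with a median of 0.766, a log2 fold change of 0.11 (95% interval -1.02 to 1.25). Its groups overlapped throughout apart from 16974 at the top. Ccl6 was at 3.02 to 13.2 CPM with a median of 9.46, a log2 fold change of -0.29 (95% interval -1.05 to 0.46). Cxcl10 was at 2.66, 1.69, 1.72, 0.717, 0.627 and 1.70 CPM, all within the APP/PS1 range, a log2 fold change of 0.14 (95% interval -0.69 to 0.97). Leaving out 1 mouse turned the sign of Ccl3, Ccl4, Ccl6, Cxcl10 and Cx3cl1 here. Without APP/PS1 mouse 16975, Ccl3 was at 0.26 and Ccl6 at 0.033.

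The homeostatic ligands had narrower intervals. Cxcl12 was at 74.4 to 105 CPM in APP/PS1/FTnKO mice against 82.1 to 91.5 CPM in APP/PS1, a log2 fold change of -0.043 (SE 0.10, 95% interval -0.26 to 0.17). Its 3 females were all below the lowest APP/PS1 mouse and male 18973 was above the highest. Cx3cl1 was at 565 to 797 CPM with a median of 668, a log2 fold change of -0.0063 (SE 0.090, 95% interval -0.20 to 0.18). Both intervals include 0.

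The third comparison, APP/PS1/FTnKO against WT, shares its WT mice with the first and its knockout mice with the second, so the values stand side by side and do not support each other. Ccl3, Ccl4, Ccl6, Cxcl10 and Cxcl16 were again called higher, 5 of 7 tested, where 3.58% of all genes tested were called and 2.14% were called higher. The median log2 fold change of the 7 was 2.33 and that of all genes tested was 0.0064. Ccl3, Ccl4, Ccl6 and Cxcl16 did not overlap with WT, where 2.79% of all genes tested lay wholly higher. Since Ccl3, Ccl4, Ccl6 and Cxcl10 passed the filter only with the transgenic mice, these counts and the median are again no measure of the family. For Ccl3 the pooled ratio was 83.2 (95% interval for counting error 28.2 to 406) and the log2 fold change was 6.12 (edgeR adjusted p = 0.00277), or 8.68 without WT mouse 19101. For Ccl4 it was 43.0 (11.6 to 360) and 5.13 (edgeR adjusted p = 0.0115), or 7.15 without WT mouse 19718. Ccl6 had a log2 fold change of 3.31 (SE 0.49, edgeR adjusted p = 0.00171). Cxcl10 had one of 2.33 (SE 0.51, edgeR adjusted p = 0.0194), and male 18973 lay just below the highest WT mouse, with the other 5 above it. Without WT mouse 18944 the Cxcl10 call was lost (adjusted p = 0.0688 by edgeR). Cxcl16 had a log2 fold change of 1.03 (SE 0.21, edgeR adjusted p = 0.0130). With mouse 19622 in the fit the Cxcl16 value was 0.81 (adjusted p = 0.0728), and without WT mouse 19053 its adjusted p was 0.0505. Cxcl12 differed by 0.026 (SE 0.11, adjusted p = 0.917) and Cx3cl1 by -0.19 (SE 0.095, adjusted p = 0.247). With RIN as a covariate the Cx3cl1 difference was -0.10 (adjusted p = 0.496 by edgeR).

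The 3 ligands under the filter were read from a fit without it. Ccl2 (MCP-1), which recruits monocytes through Ccr2, had 20 counts over 5 WT, 18 over 6 APP/PS1 and 33 over 6 APP/PS1/FTnKO mice. Its log2 fold changes were -0.29 and 0.42 for APP/PS1 and APP/PS1/FTnKO against WT, with adjusted p of 0.944 and 0.798 by edgeR. Ccl12 (MCP-5), a rodent ligand of Ccr2, had 26, 53 and 39 counts. Of the APP/PS1 mice 4 of 6 were above the highest WT mouse, and its log2 fold change in that comparison was 0.88 (SE 0.47, edgeR adjusted p = 0.579). Ccl5 (RANTES), a ligand that T cells also make, had 7, 15 and 25 counts. Its 6 APP/PS1/FTnKO mice were at 0.146 to 0.426 CPM, all above the WT maximum of 0.121 CPM, but these are 3 to 8 reads against 0 to 2, and the log2 fold change of 1.32 (SE 0.66) had an adjusted p of 0.382 by edgeR. WT mouse 19622, not in that comparison, was at 0.300 CPM. In the fit without the filter, none of the 3 was called in any of the 3 comparisons.

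Some microglial markers were also called higher in APP/PS1 than in WT. The summed level of 12 microglial marker genes was 425 to 490 CPM among WT mice, 545 to 861 CPM for APP/PS1 and 413 to 653 CPM for APP/PS1/FTnKO. Of these 12, 5 were called higher in APP/PS1 than in WT (Cx3cr1, Csf1r, Siglech and Olfml3 among them), none was called between the transgenic groups, and the median log2 fold changes were 0.51 and -0.25. Of 12 genes known from plaque-associated microglia, 11 were called higher against WT in each transgenic group, with median log2 fold changes of 2.15 and 1.78, and their sum was 715 to 775 CPM among WT mice, 854 to 1363 CPM for APP/PS1 and 827 to 1201 CPM for APP/PS1/FTnKO. Ctsb alone made up 57.0% to 78.8% of that sum in the 17 mice. Without Ctsb the other 11 summed to 155 to 181, 258 to 579 and 214 to 465 CPM. As a percentage of the 12-gene microglial sum, Ccl3 was at 0 to 0.0392 among WT mice, 0.173 to 1.10 for APP/PS1 and 0.173 to 0.815 for APP/PS1/FTnKO. Ccl6 was at 0.0465 to 0.366, 0.835 to 2.24 and 0.731 to 2.02, and Cxcl16 at 0.238 to 0.327, 0.358 to 0.557 and 0.345 to 0.623. On this scale Ccl3, Ccl4, Ccl6 and Cxcl16 did not overlap between WT and either transgenic group, where 0.442% of all genes tested lay wholly higher in APP/PS1 and 0.533% in APP/PS1/FTnKO, while Cxcl10 overlapped (0.0116 to 0.157 in WT and 0.0542 to 0.354 in APP/PS1). As a percentage of the plaque-associated sum, Ccl3, Ccl4 and Ccl6 did not overlap with WT in either transgenic group, where 0.431% and 0.295% of all genes tested lay wholly higher. Cxcl16 did not overlap for APP/PS1 on that scale (0.228 to 0.331 against 0.156 to 0.190 in WT) but did for APP/PS1/FTnKO, where mouse 18973 was at 0.172. As a percentage of the 11 genes without Ctsb, Ccl3 and Ccl6 did not overlap with WT in either transgenic group, where 0.142% and 0.113% of all genes tested lay wholly higher. Cxcl16 then overlapped with WT in both. The WT mice spanned 0.685 to 0.846 for Cxcl16, the lowest APP/PS1 mouse, 19554, lay inside that range, and the knockout mice spanned 0.567 to 0.858. Ccl4 overlapped with WT in APP/PS1/FTnKO alone. The separation of Cxcl16 from WT thus depended on which microglial genes were summed. Ccl3, Ccl4 and Ccl6 passed the filter only with the transgenic mice, so their separation on these scales is no measure of the family. The sums reached higher levels in transgenic than in WT mice. Dividing by them lowers other genes there, so these shares are not comparable with each other or with shares of undivided CPM. Of 10 T and NK cell markers 9 were under the filter, with 0.0570 to 1.05 CPM between them in any mouse, and Trbc2, at 5.86 to 14.0 CPM, was tested and not called. The 6 border macrophage markers summed to 5.15 to 11.1 CPM, and none was called. The summed astrocyte markers were at 1830 to 1979 CPM in WT and 2140 to 3712 CPM in APP/PS1, and Gfap alone of 8 was called. The part of these cell types in the ligand levels was not tested further.

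**Figure D3:**
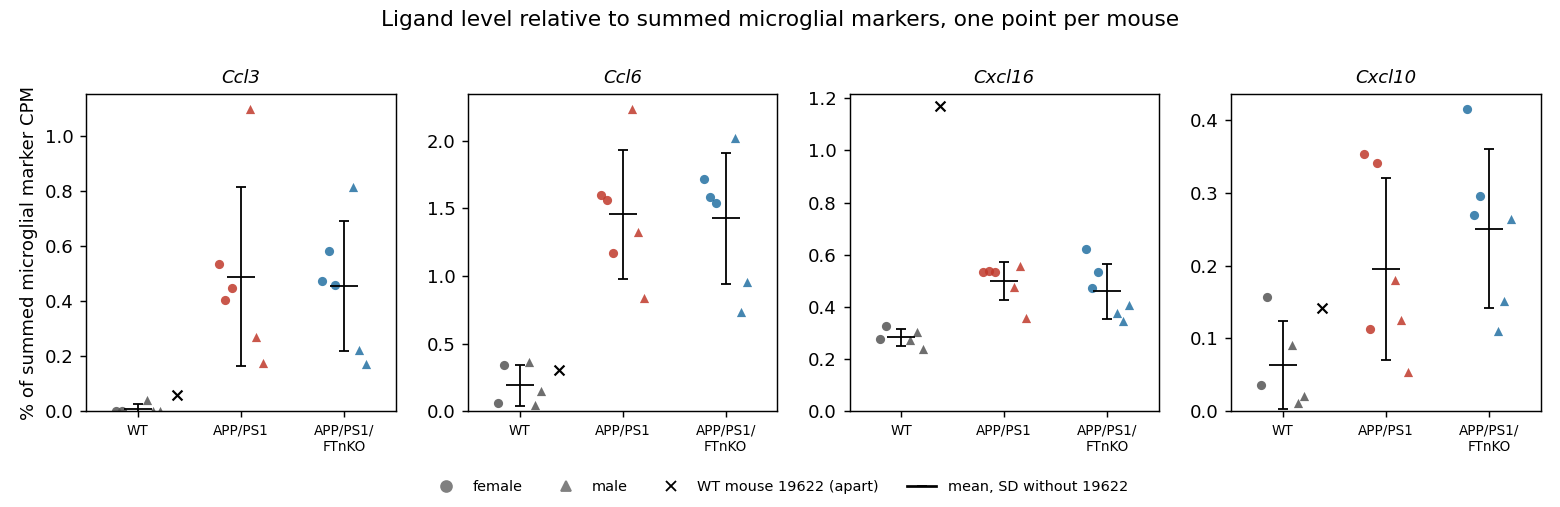
Ccl3, Ccl6, Cxcl16 and Cxcl10 as a percentage of the summed CPM of 12 microglial marker genes (y axis) in each mouse by genotype; circles are females, triangles males, the cross is WT mouse 19622, and bars are the mean and SD without it, cut at 0. The transgenic mice lie above the 5 WT mice for Ccl3, Ccl6 and Cxcl16 and overlap with them for Cxcl10.

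RNA integrity also differed with genotype. WT mice had a RIN of 8.5 to 8.8, APP/PS1 mice one of 7.7 to 8.7 and APP/PS1/FTnKO mice one of 7.6 to 8.7. The lowest values in the transgenic groups were those of males 16975 (7.7) and 16974 (7.6), which were also the highest of their groups in Ccl3, Ccl4 and Ccl6. With RIN as a covariate, Ccl3, Ccl6 and Cxcl16 were called higher in APP/PS1 than in WT, with log2 fold changes of 5.32, 2.94 and 1.27, and the calls of Ccl4 and Cxcl10 were lost. In the comparison of APP/PS1/FTnKO with WT the same covariate kept all 5 called, with adjusted p of 0.0362 or less by edgeR. Without both males, Ccl3, Ccl4, Ccl6 and Cxcl16 were called against WT in both comparisons, and Cxcl10 lost its call in APP/PS1 (1.98, adjusted p = 0.108 by edgeR). Ccl3 was at 5.69 (adjusted p = 3.68e-05) and 5.50 (adjusted p = 7.82e-05) by edgeR.

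**Figure D4:**
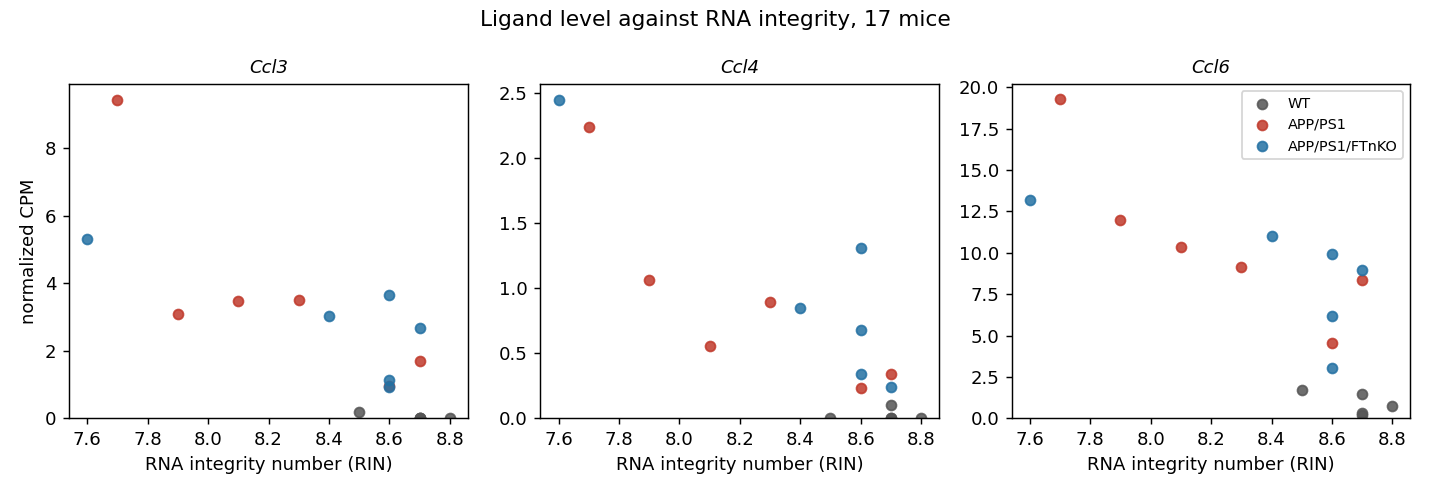
Level of Ccl3, Ccl4 and Ccl6 (y axes, normalized CPM) against RNA integrity number (x axis) in 17 mice, coloured by genotype. The mice with a RIN of 7.6 and 7.7 have the highest levels of their genotypes, and the 5 WT mice lie at a RIN of 8.5 to 8.8 and at the bottom of each panel.

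Sex was balanced in the design apart from the WT group, which had 2 females and 3 males without mouse 19622. No ligand was called for sex, where 0.0680% of all genes tested were. Cxcl10 came closest, with a male minus female log2 fold change of -1.07 (SE 0.36, adjusted p = 0.580 by edgeR). Its mean was 1.94 CPM in APP/PS1 females and 0.880 CPM in males, and 2.02 and 1.02 CPM in APP/PS1/FTnKO females and males, with overlap in both groups. A sex by genotype interaction was called for 0 of 17638 genes by edgeR, the ligands included, with 722 genes at an unadjusted p under 0.05 for APP/PS1 minus WT and 589 for APP/PS1/FTnKO minus APP/PS1.

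The ligands differed in which other ligands they followed from mouse to mouse. Within the 12 transgenic mice Pearson's r of log2 CPM was 0.934 between Ccl3 and Ccl6, 0.793 between Ccl3 and Ccl4 and 0.812 between Ccl6 and Cxcl16, against 0.470 between Ccl3 and Cxcl10 and -0.616 between Ccl3 and Cx3cl1. These are descriptions over mice that share genotype and, in part, RIN. The values that follow are over all 17 mice and so also hold the difference between WT and transgenic mice. Over those 17, r of Ccl3 with Cxcl10 was 0.801. Over all 17 mice, the genes most like Ccl3 in pattern were C3ar1 (r = 0.982), Lilrb4a (0.974) and Cd68 (0.973), and those most like Ccl6 were Lilrb4a (0.973), Havcr2 (0.966) and Wfdc17 (0.963). C3ar1 encodes a complement receptor, Cd68 a lysosomal glycoprotein of phagocytes and Havcr2 the checkpoint receptor TIM-3. Wfdc17 lies beyond Ccl4 in the same stretch of chromosome 11, at chr11:83703991-83706268. Cxcl16 was most like the lysosomal proteases Ctsd (0.977) and Ctsz (0.968) and the amino acid oxidase Il4i1 (0.977). Ccl4 was most like Mlxipl (0.934), Cd37 (0.924) and Ptpn6 (0.924), and Cxcl10 most like 1810020O05Rik (0.905), Sh3bp2 (0.887) and Cd44 (0.877). Pcdhgc5 (0.922) and Sf3b3 (0.920) were among the 3 genes most like Cx3cl1. Cxcl12 had the weakest likeness, to Rpsa-ps2 (0.820), Gm35638 (0.812) and Vegfa (0.744). Over the 12 transgenic mice, r with the first gene named was 0.891 for Ccl3, 0.827 for Ccl4 and 0.903 for Ccl6. It was 0.959 for Cxcl16, 0.808 for Cxcl10, 0.903 for Cx3cl1 and 0.728 for Cxcl12.

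The receptors are the other component of the system. Of 24 receptor genes 8 were tested, and Cx3cr1, the microglial receptor of Cx3cl1, was the one called. It was at 55.0 CPM on average in WT and 83.9 CPM in APP/PS1 (log2 fold change 0.60, SE 0.13, edgeR adjusted p = 0.0211), and was at 76.4 CPM in APP/PS1/FTnKO mice (0.47 against WT, SE 0.13, adjusted p = 0.0510). Cxcr4, the signalling receptor of Cxcl12, was at 1.36, 2.04 and 1.78 CPM in WT, APP/PS1 and APP/PS1/FTnKO mice and did not pass (adjusted p = 0.439 by edgeR for APP/PS1 minus WT). Its scavenger Ackr3 was at 11.8, 11.5 and 9.03 CPM, with a log2 fold change of -0.35 (SE 0.10, edgeR adjusted p = 0.178) between the transgenic groups and -0.39 (adjusted p = 0.0533) against WT. Ackr1, an atypical receptor of red cells and venules, was at 42.9, 41.2 and 38.5 CPM. Ccr1, Ccr2, Cxcr3 and Cxcr6, which bind Ccl3 and Ccl6, Ccl2 and Ccl12, Cxcl10 and Cxcl16, averaged no more than 0.31 CPM in any group and were not tested.

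Of 37 gene entries for other chemokine ligands 8 were tested, and 1 was called in any comparison. This was Ccl9, a rodent CC ligand next to Ccl6, at 0.294 ± 0.183 CPM in WT (SD, n = 5), 1.07 ± 0.357 CPM (n = 6) in APP/PS1 and 0.985 ± 0.544 CPM (n = 6) in the knockout. The log2 fold change of Ccl9 was 1.84 (SE 0.46, edgeR adjusted p = 0.0512) for APP/PS1 and 1.71 (SE 0.46, adjusted p = 0.0468) for APP/PS1/FTnKO against WT. Cxcl14, Ccl27a and Ccl25, the 3 others above 5 CPM, were at 77.0, 54.3 and 12.2 CPM in WT and differed by 0.11, -0.10 and -0.01 in APP/PS1, none called. Of the proteases that cut chemokines, Adam10 and Adam17, which shed Cx3cl1 and Cxcl16, and Dpp4, which trims Cxcl10 and Cxcl12, none of 3 was called. Adam10 was at 81.9, 79.8 and 76.2 CPM in WT, APP/PS1 and APP/PS1/FTnKO mice, and Adam17 had log2 fold changes against WT of 0.19 (adjusted p = 0.339) and 0.14 (adjusted p = 0.352) by edgeR. Of 8 tested genes of the NF-kB loop none was called, with a median log2 fold change of 0.17 for APP/PS1 minus WT. Its members above 5 CPM had values in that comparison of 0.19 (Nfkb1), 0.06 (Rela), -0.08 (Relb), 0.35 (Nfkbia) and 0.14 (Tnfaip3). Of 10 interferon-stimulated genes none was called, 9 of 10 had a positive value in that comparison and the median was 0.36. Among those above 5 CPM were Ifit3 at 0.61 (adjusted p = 0.319) and Oasl2 at 0.40 (adjusted p = 0.581) by edgeR.

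**Figure D5:**
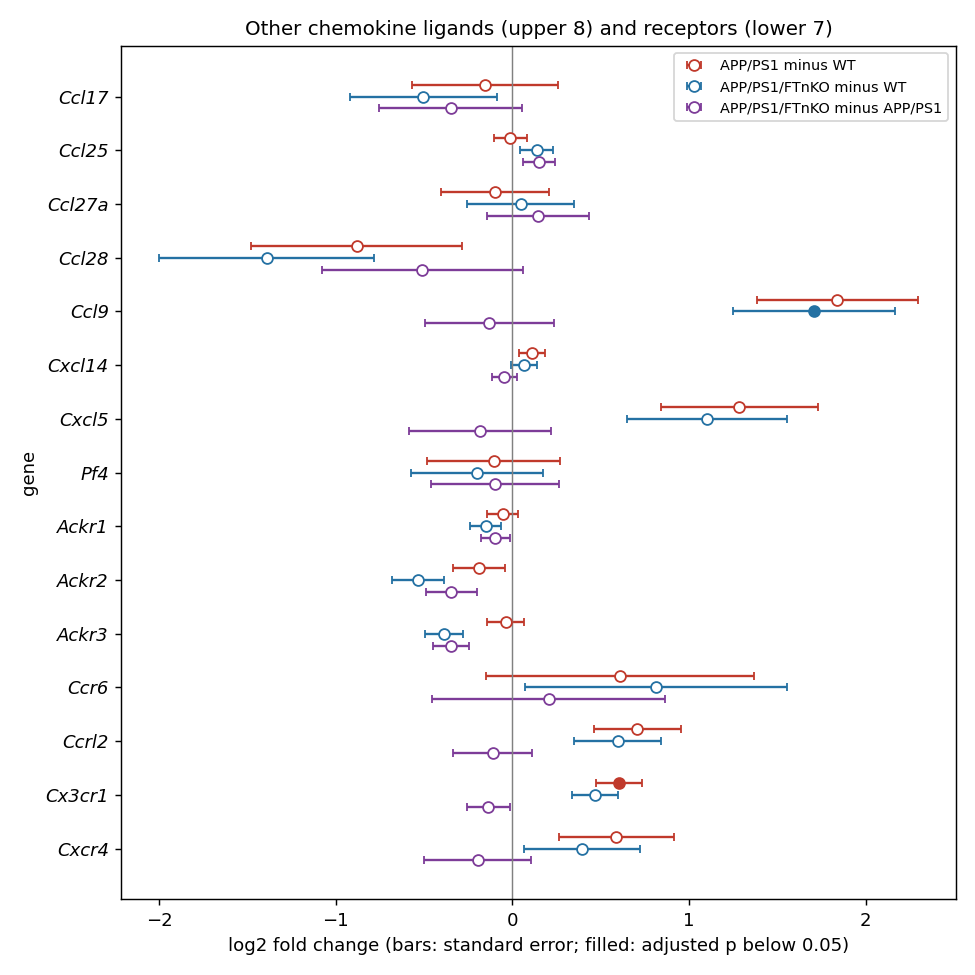
Log2 fold change (x axis) of the 8 other chemokine ligands and 7 of the 8 receptors tested (y axis) in 3 genotype comparisons, with standard errors as bars and filled points where edgeR's adjusted p was below 0.05. Ccl9 is filled for APP/PS1/FTnKO minus WT and Cx3cr1 for APP/PS1 minus WT, and no point of APP/PS1/FTnKO minus APP/PS1 is filled.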

How the data were processed

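Frontal cortex RNA was sequenced as stranded mRNA libraries with paired 150-base reads. The authors used Trimmomatic 0.33 for trimming and HISAT2 2.1.0 for alignment to GRCm38, and deposited raw counts per gene from featureCounts. The sources used here do not give its version, annotation, strand or multi-mapping settings. The processing notes list both mm10 and mm9. Totals of 15925432 to 21030935 counts per mouse leave counting error small for all but weakly expressed ligands. Intervals on pooled counts cover counting error only.

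The test was edgeR's (4.0.16, under R 4.3.3) quasi-likelihood F test on counts (TMM factors, filterByExpr by the design at a count of 10 or more, genotype and sex, 17 mice without WT 19622), which left 17638 genes, at a Benjamini-Hochberg adjusted threshold of 0.05. Standard errors were calculated back from each log2 fold change and its F statistic, so they are approximate, most of all where WT counts are near 0. Intervals of fold changes are 95% and were built from these standard errors. The scripts were checked on simulated data. Alternatives were all 18 mice, DESeq2 1.42.0, limma-voom (limma 3.58.1), RLE scaling, no filter, a minimum count of 30, no sex term, RIN as a covariate, only mice with RIN 8 or more, a fit of just the compared genotypes, robust dispersion and each mouse left out. A filter by genotype, the removal of mice 16975 and 16974, the reading of the sex term, the division by the plaque-associated sum, with and without Ctsb, and the second pair of promoter motifs were added after the data had been seen.

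The members and gene lists were chosen with earlier results of these data known. Named genes are the 10 members, listed pathway genes that were called or averaged over 5 CPM, label checks, and for each tested member the 3 genes with the highest Pearson's r of log2 CPM. Art3, Zmynd15, Cxcr4 and low receptors of the members are named outside that rule. A few genes that the rule selects are left out. Columns of the table left unused numbered 0. Nothing ties the mice to separate litters, so p-values measure the spread between these mice.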

Additional observations from a re-analysis of the deposited data

Results flagged for a closer look

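A single mouse stood apart from the rest of its genotype in 5 of the 30 sets of values examined (10 ligands in 3 genotypes). The rule was the gap to its nearest neighbour relative to the whole range. Chance alone meets it in about 1 set of 20 if values are normally distributed. The values here were untransformed CPM, some from few counts, for which that rate was not checked. APP/PS1 male 16975 had 9.45 CPM of Ccl3. APP/PS1 male 19744 had 1.95 CPM of Cxcl16, below the rest of its group. APP/PS1/FTnKO female 18943 had 0.426 CPM of Ccl5, from 8 counts. WT male 19101 had 0.182 CPM of Ccl3 and WT male 19718 had 0.101 CPM of Ccl4, where all other WT mice in the tests were at 0. In those 2 sets a lone mouse with reads stands apart by construction, so the rate of 1 in 20 does not apply to them.

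WT mouse 19622, which was left out of the tests apart from the fit of all 18 mice, exceeded all 5 other WT mice in Cxcl16, at 2.90 CPM, and in Ccl5, at 0.300 CPM.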

How the results depend on the processing

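The count of ligands called in APP/PS1 against WT was 5, and it was 3 with RIN as a covariate and 3 to 5 with 1 mouse left out. It was 0 throughout between the transgenic groups and 4 to 5 for APP/PS1/FTnKO against WT under every setting run, and no sex by genotype interaction of a ligand was called with all 18 mice, with DESeq2 or with 1 mouse left out. With all 18 mice Cx3cl1 changed sign to 0.033 in both comparisons with WT. Between the transgenic groups Ccl3 changed sign to 0.086 with RIN as a covariate, and Cx3cl1 to 0.0020 without mice 16975 and 16974. With 1 mouse left out, ranges that crossed 0 were -0.81 to 0.26 (Ccl3), -0.38 to 0.65 (Ccl4), -0.53 to 0.033 (Ccl6), -0.089 to 0.35 (Cxcl10) and -0.066 to 0.046 (Cx3cl1) between the transgenic groups, and -0.014 to 0.21 and -0.055 to 0.16 for Cxcl12 in APP/PS1 and APP/PS1/FTnKO against WT. Without any one of WT mice 18944, 19718 and 19721, Cxcl10 lost its call for APP/PS1/FTnKO against WT, with adjusted p of up to 0.0688 by edgeR. The change of Cx3cl1 with all 18 mice came from adding mouse 19622, which had 132 CPM. The cause of the other changes was not tested. Over all genes, the number called between the transgenic groups was 46, against 2 with all 18 mice, 248 with DESeq2 and 239 with RIN as a covariate, so the share of genes called there depends on the setting. No paired analysis was possible because the mice carry no shared replicate numbers. Counts summed over the 17 mice were lowest for Ccl2, Ccl5 and Ccl12, at most 14 per mouse.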
